A study of Saccharomyces cerevisiae W303 with 28 samples.

Results

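The arms of the 4 shortest chromosomes of budding yeast, 1, 3, 6 and 9, were examined for the cohesin subunit Scc1 by chromatin immunoprecipitation and sequencing (ChIP-seq). They were read as 639 windows of 1 kb out of 12447 in all. A window was a member if it lay more than 50 kb from either chromosome end and more than 30 kb from the centre of the chromosome's cohesin maximum. That maximum, which stands for the centromere, was the middle of the highest 21-window running mean in the immunoprecipitate (IP) of the Pk-tagged wild type without a break, and it fell at 154001 to 155000 on chromosome 1, 109001 to 110000 on chromosome 3, 156001 to 157000 on chromosome 6 and 346001 to 347000 on chromosome 9. Coordinates are those of the deposited windows. The sources used here name no genome build for them, so no gene was placed.

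Cohesin is a ring of Smc1, Smc3 and Scc1 that holds sister chromatids together and forms loops along a chromosome. In yeast it is densest around centromeres and lies on the arms in a row of sites, many of them between converging genes. Pds5 binds the ring and is known to limit loop growth, to take part in its release and to protect cohesion. Rad17 is a subunit of the checkpoint clamp, which is loaded at damaged DNA and starts the signal that recruits cohesin around a double-strand break.

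Cells of the W303 background were fixed 4 h after galactose addition, which induces a nuclease that cuts a site on chromosome 5, so none of these 4 chromosomes carried the cut. HA-tagged Scc1 (Scc1-6HA) was measured with a break and nocodazole, which depolymerises microtubules and holds cells in mitosis, in wild-type, rad17, pds5-AID and rad17 pds5-AID strains (n = 2 libraries each), and in a wild-type strain with an uncleavable site and nocodazole (n = 1). For Pk-tagged Scc1 (Scc1-PK9) there was 1 library of each of 4 kinds: wild type with an uncleavable site and nocodazole, wild type and rad17 with break and nocodazole, and wild type with break but without nocodazole. A strain without a tag, with a break and nocodazole, gave the background (n = 1). The libraries of each group were taken to come from 1 strain, and nothing in the labels says that they were separate cultures. The p-values therefore measure the spread between libraries, which may be technical. Wild type with a break and wild type without one differ in the cut site, so that comparison is also one between strains. AID is a degron that removes a protein on addition of auxin. The labels do not mention auxin, so how far Pds5 was depleted is not known here. Mutants without a break were not analysed here. One treatment entry goes against the title of the HA strain with the uncleavable site, and the title was followed.

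Chromosome 1 gave 74 windows left of its maximum (50001 to 124000) and 18 right of it (185001 to 203000). Chromosome 3 gave 29 on the left (50001 to 79000) and 134 on the right (140001 to 292000), chromosome 6 gave 76 (50001 to 126000) and 41 (187001 to 228000), and chromosome 9 gave 263 (50001 to 316000) and 4 (377001 to 381000). Of 660 positions, 21 were left out because the extract of HA wild type with a break, replicate 1, was outside 0.25 to 4 times its median. Of these, 18 lay on chromosome 3 and 3 on chromosome 9. The lowest extract kept was 0.275 of the median and the highest left out below the bound was 0.238. A single member, on chromosome 1 at 191001 to 192000, was absent from the fits because its mean extract over the HA libraries missed the same bound, which leaves 638. The 7433 arm windows of the 10 long uncut chromosomes, chosen by the same rule, served for comparison. Chromosomes 5 and 12 were left out of these because of the cut and the ribosomal DNA.

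Scc1 levels are log2 of the calibrated IP over the extract, the extract being relative to its own median. As a stand-in for depth, the median IP signal over the short arms was divided by the library's smallest signal above 0. This ratio was 27.7 to 82.8 in the 9 HA IP libraries and 36.4 in the untagged library. It was 9.45 in the Pk wild type without a break and 2.58 in the Pk wild type without nocodazole. By this measure, which is not a count of reads, the precision of these 2 Pk libraries is limited by depth. Coverage was uneven in 3 extracts, namely those of both strains without a break and of replicate 2 of HA wild type cut on chromosome 5. Their log2 coverage over the short arms had an SD of 0.48 to 0.83 against 0.20 to 0.24 in the other 11. In these 3 the short arms had 1.04 to 1.09 times the extract of the long arms, and the median window of chromosome 3 stood at 112% to 122% of the library median, whereas in the other 11 it stood at 98.7% to 104%. Every comparison with HA wild type is touched by these extracts, so values of the IP signal alone are given beside the results they change. None is given for the difference between sites and valleys.

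The short arms held about as much Scc1 as the long arms in every tagged library. With a break their level was 4.72 and 4.84 in HA wild type, 4.24 and 4.53 in rad17, 3.84 and 4.36 in pds5-AID, 3.304 and 3.62 in rad17 pds5-AID, and without one it was 4.53 in HA wild type. For Pk it was 4.04 without a break, 4.36 with a break, 4.15 in rad17 and 4.63 without nocodazole. The untagged library stood at 0.96, so the tagged libraries were 5.09-fold to 14.8-fold above background. Short minus long arms was 0.06 and 0.03 in HA wild type with a break (0.04 ± 0.03, SD, n = 2), and it ran from -0.07 in HA wild type without a break to 0.12 in rad17 pds5-AID replicate 1 among the 9 HA libraries. It was 0.03 to 0.15 in the 4 Pk libraries and -0.06 in the untagged one. With the IP signal alone all 13 tagged libraries lay above 0, between 0.04 and 0.16.

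**Figure D1:**
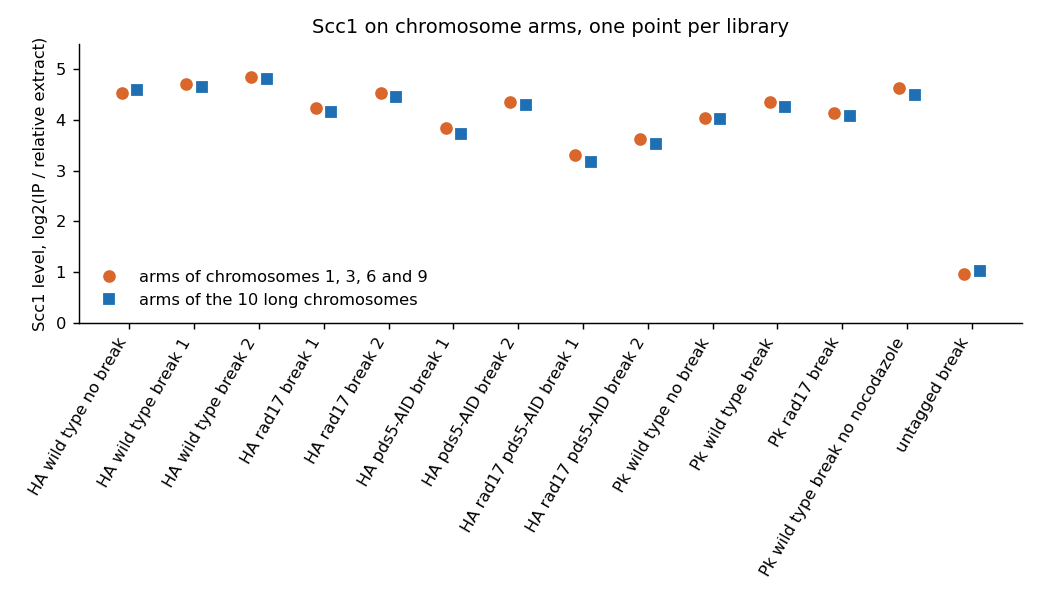
Scc1 level (log2 of IP over relative extract, vertical axis) on the arms of chromosomes 1, 3, 6 and 9 (circles) and on the arms of the 10 long chromosomes (squares), 1 point of each per library. Within each library both points nearly coincide, the untagged library lies near 1, and the lowest tagged values are those of rad17 pds5-AID.

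Among the 14 uncut chromosomes, the order of arm levels relative to the library median in HA wild type with a break put chromosome 6 first (0.76 ± 0.07, SD, n = 2), chromosome 3 second (0.74 ± 0.04), then chromosome 9 (0.72 ± 0.04), with chromosome 1 at rank 9 (0.69 ± 0.07). All 14 lay between 0.602 and 0.755, and neighbours in that order differed by less than the larger of their SDs between libraries, except the lowest, chromosome 14 (0.602 ± 0.05), against chromosome 8 (0.66 ± 0.05). The rank correlation of arm level with chromosome length over the 14 was -0.45 in replicate 1 and 0.09 in replicate 2, whose extract was uneven. It ran from -0.35 to -0.74 in the 6 HA mutant libraries, was 0.83 in HA wild type without a break, and was 0.82 in the untagged library. These 14 points share a library and its extract, so the values are descriptions.

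Within the short arms the level varied far more along the chromosome than between arms. Among the 638 windows the SD of log2 was 1.21 and 1.37 in the HA wild-type libraries with a break, while the untagged library had 0.36. Replicates followed one another window by window (r = 0.96 in wild type, 0.98 in rad17, 0.97 in pds5-AID and 0.97 in rad17 pds5-AID, n = 638 windows, which share libraries and are not independent). HA and Pk wild type with a break correlated at 0.97, and HA wild type and the untagged library at 0.44.

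Cohesin sites and the valleys between them were placed in the Pk wild type with a break and nocodazole, which is in no HA comparison. A site was the highest window within 5 on either side, at or above the library median, and a valley the lowest, at or below it. The short arms held 60 sites, or 9.40 per 100 kb, with a median spacing of 10 kb, and 58 valleys. The long arms held 623 sites, or 8.38 per 100 kb, with a median spacing of 11 kb, and 635 valleys.

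The tallest site of the short arms lay on chromosome 3 at 236001 to 237000, 127 kb from the maximum. It stood 18.8-fold above the library median in HA wild type with a break. Its log2 values relative to the median were 3.84 and 4.62 in wild type, 4.08 and 4.13 in rad17, 3.11 and 3.28 in pds5-AID, 2.98 and 3.504 in rad17 pds5-AID and 5.93 without a break. Both strains with the degron lay below wild type and rad17 there. In the Pk libraries it was 5.04 without a break, 3.88 with a break, 3.99 in rad17 and 3.98 without nocodazole, and in the untagged library 0.498. The named sites and valleys were ranked in HA wild type, the reference of the comparisons, so their values are given without a test.

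The next 4 sites were on chromosome 1 at 52001 to 53000 (12.99-fold above the library median), on chromosome 9 at 308001 to 309000 (11.5-fold) and 286001 to 287000 (11.3-fold), and on chromosome 6 at 91001 to 92000 (11.2-fold). The last owed its rank to replicate 2, with log2 values of 2.91 and 4.05 in HA wild type against 2.75 and 3.16 in pds5-AID. The deepest valley was on chromosome 1 at 70001 to 71000, at 0.156 of the library median in wild type. The other named valleys were on chromosome 6 at 191001 to 192000 (0.207) and on chromosome 1 at 192001 to 193000 (0.210).

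Relief, the median log2 of the sites minus that of the valleys, was lower in the strains with the degron. It was 3.67 and 4.13 in HA wild type after the cut, 3.57 and 3.63 in rad17, 2.74 and 2.92 in pds5-AID, and 2.65 and 2.86 in rad17 pds5-AID. The library without a break had 4.39 and the untagged library 0.42. The 4 degron libraries thus lay below the other 5 HA libraries, with no overlap. The 2 highest HA values, 4.39 and 4.13, came from libraries with uneven extracts, and no relief with the IP alone is given. In pds5-AID the difference from wild type was -1.07 (2.83 ± 0.13 against 3.90 ± 0.33, SD, n = 2 each), in rad17 pds5-AID -1.14 and in rad17 -0.30. Each had an exact two-sided permutation p of 0.33, the smallest that 2 libraries against 2 can give. On the long arms the same differences were -0.88, -1.02 and -0.27. On the calibrated level the median difference in pds5-AID was -1.07 at sites and -0.27 at valleys. Relative to the library median, which was itself lower, the median site was 2.40 and 2.64 in wild type and 1.79 and 1.82 in pds5-AID, and the median valley -1.26 and -1.49 against -0.95 and -1.10. No background was subtracted, and valleys lie closest to it. The library median was 7.79-fold and 8.92-fold above the untagged one in wild type. In pds5-AID it was 4.71-fold and 6.60-fold above, and in rad17 pds5-AID 3.13-fold and 3.71-fold. The part of background in the relief was not tested. Sites and valleys were placed in a library with the genotype and treatment of the wild-type reference. A strain whose sites lay elsewhere would thus also have a lower relief, and this was not tested either. Without nocodazole the Pk wild type had a relief of 3.03, from 1 library at the lowest depth of the set. With nocodazole it had 3.81, also from 1 library. Sites and valleys were placed in that second library, which raises its own relief, so the 2 values are not like for like.

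**Figure D2:**
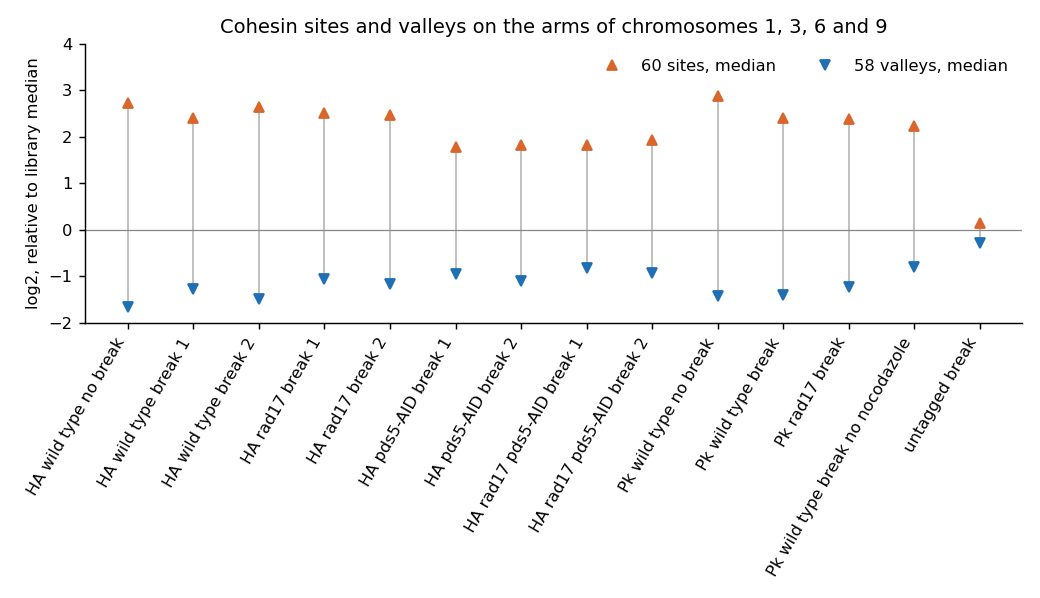
Median log2 Scc1 relative to the library median over the 60 sites (upward triangles) and 58 valleys (downward triangles) of the short arms, 1 pair per library. The distance between the points is the relief, which is 2.65 to 2.92 in the 4 libraries with the degron and 3.57 to 4.39 in the other 5 HA libraries.

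The first comparison asked whether the arms of uncut chromosomes change when chromosome 5 is cut. The level of the short arms differed by 0.25 ± 0.31 between HA wild type with and without a break (limma over 99 regions, adjusted p = 0.807). None of the 7 arm segments with at least 10 windows passed, and their differences were 0.14 to 0.62. Of the 638 members 29 rose and 17 fell (7.21%), where 2.47% of all 11638 windows rose and 2.48% fell. By limma on the IP alone 0 passed (0.232% of all windows did), with 10 below 0.05 before adjustment. Leaving out 1 library moved the count between 2, without HA wild type with a break replicate 1, and 91, without pds5-AID replicate 2. With levels centred on the library median 55 rose and 73 fell (6.57% and 12.7% of all windows).

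The largest rises were on chromosome 3 at 283001 to 285000 (1.42 ± 0.32 at the peak window, adjusted p = 0.00211), on chromosome 1 at 58001 to 63000 (1.35) and on chromosome 3 at 58001 to 62000 (1.34). With the IP alone their peaks differed by 0.71, 0.69 and 0.55 and did not pass. The largest falls were on chromosome 9 at 309001 to 310000 (-1.96 ± 0.52) and 215001 to 217000 (-1.84), and on chromosome 3 at 169001 to 170000 (-1.83). With the IP alone these were -0.09, -0.01 and -0.07. On each window's own spread all 6 had adjusted p-values of 0.341 to 0.390.

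Relative to the long arms, the short arms rose by 0.12 ± 0.03 with the break (limma over 98 regions, adjusted p = 0.0463), from -0.07 to 0.04. Among the segments, 4 of 7 rose, led by the left arm of chromosome 3 (0.48 ± 0.06, adjusted p = 0.00389), against 15.3% of all regions called higher. The left and right arms of chromosome 6 rose by 0.20 and 0.14 and the left arm of chromosome 1 by 0.21. With the IP signal alone the short arms differed by 0.02 ± 0.03 (adjusted p = 0.646), none of the 7 segments passed, and the left arm of chromosome 3 differed by 0.12 (adjusted p = 0.242). On own spread the adjusted p over the short arms was 0.0572, and without any 1 of 8 HA libraries it was 0.052 to 0.152. In the no-break extract the short arms stood at 1.09 times the long arms. The Pk pair, whose no-break extract is uneven too, differed by 0.32 on the short arms and by 0.25 on the long arms, with no replicates. Window by window, HA and Pk differences had r = 0.67 when divided by the extract and 0.25 as IP alone (n = 638).

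The next comparison asked what differs on these arms without the checkpoint clamp. In rad17 cells the short-arm level differed by -0.39 ± 0.25 from wild type (4.38 ± 0.20 against 4.78 ± 0.09, SD, n = 2 each, adjusted p = 0.182), and the 7 segments by -0.61 to -0.32, none past the test. With the replicate number as a block in the limma fit, the short arms passed (adjusted p = 0.0015). The 7 segments and the long arms (adjusted p = 0.00074) passed as well. The labels do not say whether these numbers pair the libraries. Relative to the library median the direction turned: the short arms differed by 0.14 ± 0.07 (0.871 and 0.858 against 0.762 and 0.690, adjusted p = 0.0982), and 4 of the 7 segments rose, by 0.18 to 0.21, the left arm of chromosome 1, the left arm of chromosome 3 and both arms of chromosome 6. The long arms moved the same way, at 0.80 and 0.78 in rad17 against 0.70 and 0.66 in wild type. The share of all regions called on this scale is not given here. Of the members 33 fell and 0 rose (5.17%), where 5.40% of all windows fell and 0.0172% rose. By limma on the IP alone 0 passed (0.705% of all windows did), with 159 below 0.05 before adjustment. Leaving out 1 library moved the count between 0, without HA wild type replicate 2, and 75, without pds5-AID replicate 1. On the same centring 1 rose and 0 fell (0.163% and 0.0687% of all windows). The largest falls were on chromosome 3 at 158001 to 159000 (-1.61 ± 0.41, adjusted p = 0.0079), on chromosome 1 at 201001 to 202000 (-1.53) and on chromosome 9 at 104001 to 106000 (-1.36). With the IP alone they were -0.57, -0.597 and -0.95, and relative to the library median -1.08, -0.999 and -0.83, and none passed. Short minus long arms differed by 0.03 ± 0.03 (adjusted p = 0.453, 95% interval -0.03 to 0.10). Pk-tagged Scc1 in rad17 differed by -0.21 on the short and -0.19 on the long arms, from 1 library each.

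In pds5-AID cells with a break the short arms fell by 0.68 ± 0.25 (4.10 ± 0.37 against 4.78 ± 0.09, SD, n = 2 each, adjusted p = 0.0102), beside a fall of 0.72 on the long arms. The level fit took 1 common spread for all regions, which share each library's shift of level. On own spread the adjusted p was 0.0788, and relative to the library median the difference was -0.10 (adjusted p = 0.151), since the median of the whole genome was itself 0.58 lower. It missed the threshold without HA wild type replicate 2 (-0.62, adjusted p = 0.104) and without pds5-AID replicate 1 (-0.42, adjusted p = 0.111). All 7 segments fell, by 0.52 on the right arm of chromosome 6 to 1.19 on the right arm of chromosome 1, against 80.8% of all regions, and on own spread only the right arm of chromosome 1 passed (adjusted p = 0.0466). Of the members 204 fell and 0 rose (32.0%), where 33.4% of all windows fell and 0.043% rose. On each window's own spread 0 passed, with 185 below 0.05 before adjustment by limma, and without HA wild type with a break replicate 2 the count was 27 and without pds5-AID replicate 1 it was 43. With levels centred on the library median 51 rose and 74 fell (8.68% and 13.8% of all windows). At sites 38 of 60 fell (63.3%) and at valleys 10 of 58 (17.2%), while over the long arms 68.1% of sites and 13.5% of valleys fell.

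The deepest falls in pds5-AID were on chromosome 1 at 198001 to 203000 (-2.21 ± 0.40 at 201001 to 202000, adjusted p = 3.89e-06), on chromosome 6 at 57001 to 60000 (-2.15 ± 0.40) and on chromosome 9 at 215001 to 220000 (-2.10 ± 0.42). All 3 passed with the IP alone, at -1.41, -1.84 and -1.51, and relative to the library median, at -1.63, -1.57 and -1.52. On each window's own spread their adjusted p-values were 0.138, 0.114 and 0.135. The window on chromosome 1 was also among the named falls of rad17.

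In rad17 pds5-AID cells the short arms fell furthest, by 1.31 ± 0.25 from wild type (3.46 ± 0.23, SD, n = 2, adjusted p = 3.97e-07, and 0.00918 on own spread), beside 1.38 on the long arms. Relative to the library median the difference was -0.02 (adjusted p = 0.749). All 7 segments fell, by 1.12 to 1.92, as did 100% of the regions of the genome. Of the members 576 fell and 0 rose (90.3%), where 92.2% of all windows fell and 0.0172% rose, with 59 of 60 sites and 46 of 58 valleys among them. Centred in the same way, 101 rose and 76 fell (13.6% and 15.2% of all windows). The deepest runs of falls, in which single windows that did not pass were allowed, spanned the left arm of chromosome 3 from 50001 to 79000 (peak -3.01 ± 0.35 at 71001 to 72000), the right arm of chromosome 1 from 185001 to 203000 (-2.88), and 90001 to 126000 within the left arm of chromosome 6 (-2.78). These 3 peaks passed with the IP alone, relative to the library median and on own spread (adjusted p = 0.0155 to 0.0252).

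Against pds5-AID, the double mutant was lower by 0.63 ± 0.25 on the short arms (adjusted p = 0.0164, and 0.0968 on own spread) and by 0.66 on the long arms. It was 0.08 higher relative to the library median (adjusted p = 0.516). The 7 segments fell by 0.59 to 0.83, where 99.0% of all regions fell, and none passed on own spread. Without pds5-AID replicate 2 the short-arm difference was -0.37 (adjusted p = 0.166) and without rad17 pds5-AID replicate 1 it was -0.47 (adjusted p = 0.199). Of the members 170 fell and 1 rose (26.8%), where 30.3% of all windows fell and 0.0172% rose. The count was 2 without rad17 pds5-AID replicate 1 and 451 without pds5-AID replicate 1. After centring 1 rose and 0 fell (0.043% and 0.352% of all windows). The 1 rise, on chromosome 6 at 89001 to 90000 (0.80 ± 0.29, adjusted p = 0.0348; with the IP alone 0.58, adjusted p = 0.06), lay beside the largest fall, at 91001 to 100000 (-1.49 ± 0.43 at the site at 91001 to 92000). The next falls were on chromosome 3 at 69001 to 72000 (-1.28) and on chromosome 9 at 195001 to 198000 (-1.22). Relative to the library median these falls were -0.77, -0.57 and -0.51 and did not pass, while the rise was 1.51 (adjusted p = 0.000523). The rad17 difference with the degron differed from that without it by -0.24 ± 0.36 over the short arms (adjusted p = 0.657, 95% interval -0.94 to 0.46), and 1 member passed (0.0172% of all windows). These comparisons share libraries: over the 6, HA wild type with the cut stands in 5 and pds5-AID in 3.

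Averaged over their whole length, short minus long arms did not pass in pds5-AID (0.04 ± 0.03, 95% interval -0.02 to 0.11, adjusted p = 0.235) and in rad17 pds5-AID (0.07 ± 0.03, 95% interval -0.001 to 0.13, adjusted p = 0.0712). With the long arms weighted to the same distances the sign turned in both, to -0.03 and -0.04, and neither passed. The segments went in both directions. Relative to the long arms, the right arm of chromosome 1 fell by 0.47 ± 0.08 in pds5-AID (adjusted p = 0.00308) and by 0.54 in rad17 pds5-AID, and the left arm of chromosome 3 fell by 0.14 ± 0.05 (adjusted p = 0.0466, and 0.0875 on own spread) and by 0.304. The right arm of chromosome 6 rose by 0.20 ± 0.03 (adjusted p = 0.00166) and by 0.27, and that of chromosome 3 by 0.09 ± 0.02 (adjusted p = 0.0179) and by 0.16. The left arm of chromosome 1 rose by 0.15 in rad17 pds5-AID (adjusted p = 0.0196; with the IP alone 0.08, adjusted p = 0.0736). The left arms of chromosomes 6 (-0.03 and -0.007) and 9 (0.03 and 0.04) did not pass in either strain, although with the IP alone the former fell by 0.08 in pds5-AID (adjusted p = 0.0471). Relative to the long arms, 24.5% of all regions rose and 37.8% fell in pds5-AID, and 27.6% rose and 43.9% fell in rad17 pds5-AID.

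**Figure D3:**
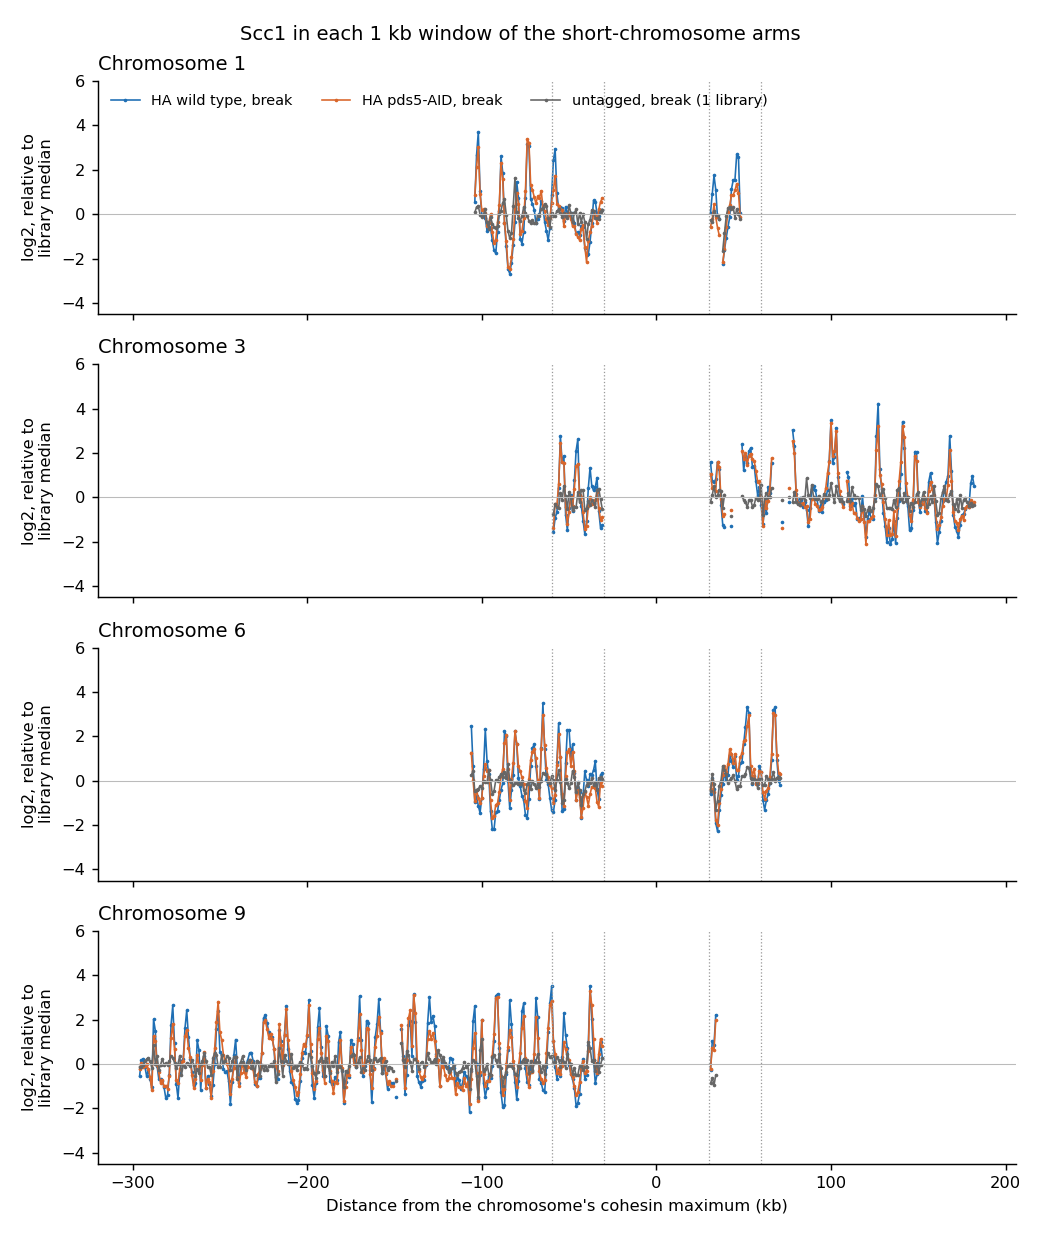
Scc1 in each of the 638 member windows (log2 relative to the library median, vertical axis) against the distance from the chromosome's cohesin maximum in kb, with HA wild type with a break and pds5-AID with a break as means of 2 libraries and the untagged library as the background. Dotted lines mark 30 and 60 kb. Peaks of pds5-AID stand at the same places as those of wild type and are mostly lower, among them those on the right of chromosome 1 and the left of chromosome 6 within 60 kb.

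The segments differed by how close to the cohesin maximum they lay. A comparison at matched distance was therefore added after the data had been seen, in 5 classes, each short minus long in the same library. The class at 30 to 60 kb held 192 short-arm windows on all 8 arms, that at 60 to 90 kb 122 on 5 arms, that at 90 to 120 kb 89 on 4 arms, and those at 120 to 150 and 150 to 400 kb 57 and 178 on 2 arms, the right arm of chromosome 3 and the left arm of chromosome 9.

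At 30 to 60 kb, short minus long was -0.04 and 0.01 for HA wild type after the cut, -0.05 and -0.02 for rad17, and -0.14 where no cut was made. It was -0.24 and -0.29 in pds5-AID and -0.32 and -0.34 in rad17 pds5-AID. The 4 libraries with the degron lay below the other 5 without overlap. In the Pk libraries, none of which has the degron, it was -0.13 without a break, -0.001 with a break, -0.09 in rad17 and 0.001 without nocodazole, and in the untagged library -0.08.

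Relative to wild type, the short arms in this class fell by 0.25 ± 0.03 in pds5-AID and by 0.32 ± 0.03 in rad17 pds5-AID (limma over 110 regions, adjusted p = 0.000904 and 0.000245), and they differed by -0.02 in rad17 (adjusted p = 0.727). In the same fit 39.1% of all regions fell in pds5-AID and 44.5% in rad17 pds5-AID. With the IP alone the falls were 0.27 and 0.33, on own spread the adjusted p-values were 0.00592 and 0.00185, and without any one of the 9 HA libraries the falls were 0.22 to 0.27 and 0.29 to 0.34, all past the threshold. Both sides moved: relative to the library median the short arms went from 0.76 ± 0.01 in wild type to 0.59 ± 0.003 in pds5-AID, and the long arms at that distance from 0.77 ± 0.05 to 0.85 ± 0.03 (SD, n = 2 each).

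Farther out the sign turned. At 60 to 90 kb short minus long was 0.09 and 0.07 in wild type, 0.22 and 0.20 in pds5-AID, and 0.24 and 0.20 in rad17 pds5-AID, a rise of 0.13 ± 0.02 and 0.14 ± 0.02 (adjusted p = 0.0042 and 0.00212). Of all regions 23.6% and 27.3% rose in these comparisons. These are rises of short minus long arms, and the long arms were lower in pds5-AID. Relative to the library median the long arms at 60 to 90 kb were 0.76 and 0.69 in wild type and 0.62 and 0.66 in pds5-AID. The short arms there were 0.85 and 0.76 against 0.83 and 0.86. At 90 to 120 kb the difference was 0.05 ± 0.03 in pds5-AID (adjusted p = 0.177), with a rise of 0.13 in rad17 pds5-AID and of 0.13 in rad17 (adjusted p = 0.00559 and 0.0326, or 0.089 and 0.0723 with the IP alone, where 8.18% of all regions rose in rad17). At 120 to 150 kb the rises were 0.11 and 0.16, and the former missed the threshold on own spread (adjusted p = 0.0826) and with the IP alone. Relative to the library median the short arms there were 1.11 and 0.97 in wild type and 0.96 and 1.04 in pds5-AID. The long arms were 0.77 and 0.74 against 0.56 and 0.65. At 150 to 400 kb neither strain passed (0.008 and 0.01).

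**Figure D4:**
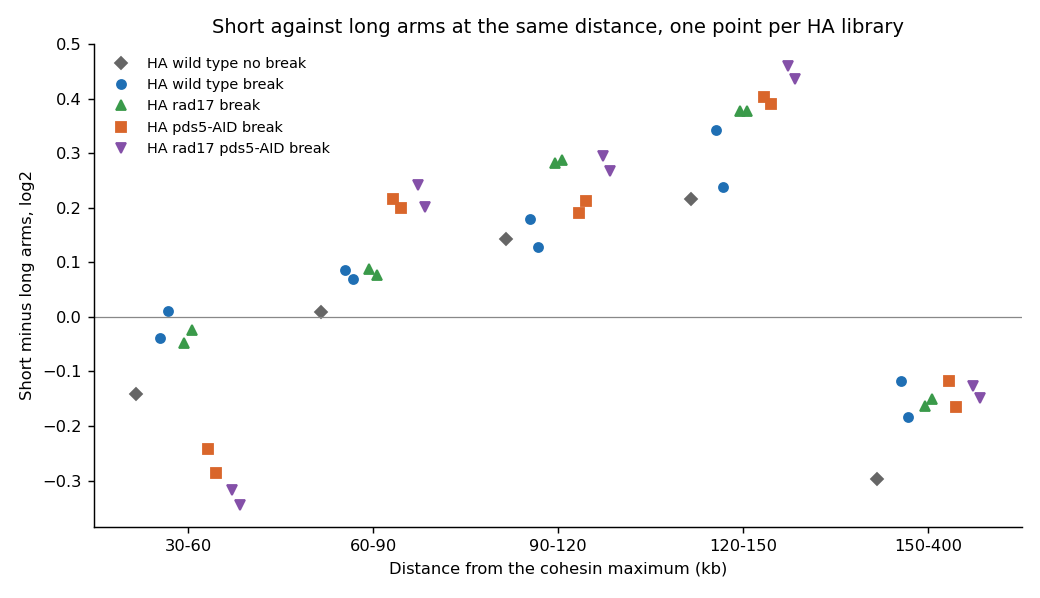
Short minus long arms (log2, vertical axis) within 5 classes of distance from the cohesin maximum (kb, horizontal axis), 1 point per HA library, coloured by group. At 30 to 60 kb the pds5-AID and rad17 pds5-AID points lie between -0.24 and -0.34, below all other points, and at 60 to 90 kb they lie above them.

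The fall at 30 to 60 kb was carried by 4 of the 7 short-arm stretches with at least 10 windows. On the right arm of chromosome 1 (17 windows) the level relative to the library median was 0.84 and 0.97 in wild type, 0.907 and 0.75 in rad17, 0.89 without a break, 0.27 and 0.32 in pds5-AID, and 0.28 and 0.27 in rad17 pds5-AID. On the left arm of chromosome 6 (30 windows) it was 0.69 and 0.56 in wild type, 0.79 and 0.81 in rad17, 0.37 without a break, 0.15 and 0.11 in pds5-AID, and 0.09 and 0.08 in rad17 pds5-AID. In both stretches the 4 degron libraries lay below every other tagged library, Pk included. On the left arms of chromosomes 3 and 1 this held except for HA wild type without a break. On the former that library stood at 0.11, against 0.32 and 0.31 in pds5-AID and 0.17 and 0.24 in rad17 pds5-AID. On the latter it stood at 0.031, against 0.038 and -0.050 in pds5-AID and 0.032 and 0.031 in rad17 pds5-AID.

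Relative to the long arms at that distance, the right arm of chromosome 1 fell by 0.69 ± 0.08 in pds5-AID, the left arm of chromosome 6 by 0.58 ± 0.05, the left arm of chromosome 1 by 0.42 ± 0.05 and the left arm of chromosome 3 by 0.36 ± 0.04 (adjusted p = 0.000904, 0.000637, 0.00123 and 0.000637). In rad17 pds5-AID the same 4 fell by 0.84, 0.76, 0.51 and 0.61. All 8 of these falls passed with the IP alone and on own spread. The left arm of chromosome 9 fell by 0.11 ± 0.04 (adjusted p = 0.0483, and 0.0826 on own spread) and by 0.16. The right arms of chromosome 3 (-0.04 ± 0.12 and 0.01) and chromosome 6 (0.01 ± 0.03 and 0.007) did not pass in either strain, although with the IP alone the right arm of chromosome 3 rose by 0.12 in rad17 pds5-AID (adjusted p = 0.023). At 192001 to 193000, within the stretch on the right arm of chromosome 1, the extract averaged 0.527 of its median in the 10 HA and untagged libraries and 1.32 in the 4 Pk libraries. With the IP alone that stretch fell by 0.66 in pds5-AID. Against pds5-AID, the left arm of chromosome 3 fell further in the double mutant, by 0.25 ± 0.04 (adjusted p = 0.0435, and 0.0904 on own spread), where 3.64% of all regions fell.

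The same stretch of the long chromosomes gives the range in which these values stand. Among 19 long-chromosome stretches at 30 to 60 kb the pds5-AID difference ran from -0.29 to 0.25 with a median of -0.05, and among the 7 short ones from -0.69 to 0.01 with a median of -0.36. The 4 lowest of all 26 were those on the right arm of chromosome 1, the left arms of chromosomes 6 and 1 and the left arm of chromosome 3. In rad17 pds5-AID the long stretches ran from -0.34 to 0.32 and the short ones from -0.84 to 0.01. In rad17 the long stretches ran from -0.10 to 0.12 and the short ones from -0.23 to 0.06. The right and left arms of chromosome 1 (-0.23 ± 0.08 and -0.15 ± 0.05) were below all 19 long stretches in rad17 too, with adjusted p = 0.129 and 0.131, or 0.0206 and 0.0716 with the IP alone.

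These 4 stretches lie on arms of 98 to 156 kb, measured from the cohesin maximum to the chromosome end. Arms of like length on long chromosomes had differences of 0.06 (left arm of chromosome 8, 106 kb), -0.18 (right arm of chromosome 16, 128 kb) and -0.10 (right arm of chromosome 14, 160 kb), and the right arm of chromosome 6, 122 kb long, had 0.01. Over all 26 arms the pds5-AID difference correlated with log2 of arm length at r = 0.37 (Spearman 0.19), and over the 19 long-chromosome arms at -0.09 (Spearman -0.20), values that share libraries and are descriptions.

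**Figure D5:**
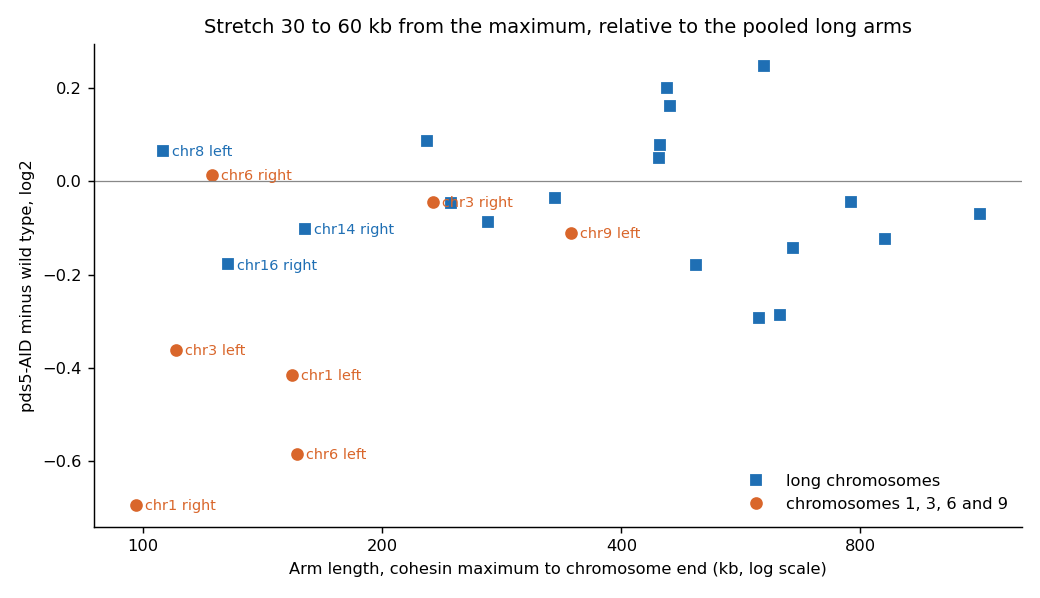
Difference between pds5-AID and wild type with a break (log2, vertical axis) in the stretch 30 to 60 kb from the cohesin maximum, relative to the pooled long arms at that distance, against arm length (kb, log scale), for 7 arms of chromosomes 1, 3, 6 and 9 and 19 arms of long chromosomes. Arms of the short chromosomes and the 3 long-chromosome arms of like length are labelled, and 4 short-chromosome arms lie below all others, at -0.36 to -0.69.

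At the bounds of the rule, values are given without a test. Relative to the library median, the 40 windows at 25 to 30 kb from the maximum stood at 0.69 ± 0.004 and the 39 at 30 to 35 kb at 0.48 ± 0.06 in HA wild type with a break (SD, n = 2). In pds5-AID they stood at 0.77 and 0.802 outside the bound and at 0.25 and 0.24 inside it. The 39 windows at 45 to 50 kb from an end stood at 0.603 ± 0.04 and the 39 at 50 to 55 kb at 1.36 ± 0.03 in wild type. Between the maximum and 30 kb, the 230 windows of the 4 short chromosomes stood at 1.78 ± 0.02, and the 606 of the long chromosomes at 1.68 ± 0.02. The pericentromeres of chromosomes 1, 3, 6 and 9, within 30 kb of the maximum, rose relative to the long arms in pds5-AID by 0.32, 0.41, 0.37 and 0.36, the opposite direction to 4 of the stretches beside them. On the calibrated level these pericentromeres differed by -0.40, -0.31, -0.35 and -0.36, and none passed. The same zone of the long chromosomes also rose relative to the library median, to 1.81 and 1.90 in pds5-AID.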

How the data were processed

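Scc1 ChIP-seq of 28 libraries (14 IP, 14 input extract) was taken as the coverage signal per 1 kb window that the authors deposited, in files without headers. From the values, extracts were unscaled coverage and each IP signal carried 1 scale factor per library, and the series' design text gives calibration with Candida glabrata cells. The submitters' processing notes name Bowtie2, SAMtools, bedtools and MACS2 without versions. The sources used here name no genome build.

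Each IP was divided by its own extract relative to that extract's median. Windows with a mean relative HA extract of 0.25 to 4 were kept (11638), with 5% of the library median added before log2. Regions had no pseudocount. Differences, ± SE, were fitted with limma 3.58.1 (R 4.3.3) on the 9 HA libraries, with 5 group means and 4 residual degrees of freedom, and adjusted by Benjamini-Hochberg over all windows or regions at 0.05. Window fits let the spread follow the mean level. "Own spread" is the same fit without moderation, "IP alone" omits the extract, and "relative to the library median" subtracts the median of kept windows. Regions were fitted over 99 levels, 98 relative values, or 110 with distance classes. In the fit of 99 levels limma took 1 common spread for all regions. Every comparison of 2 libraries with 2 therefore had an SE of 0.25 there. Regions of a library share any shift of its whole level, so these p-values can come out too small. Those on own spread rest on the 4 residual degrees of freedom alone. The fits were tested on simulated data. Single values were compared by exact permutation, in Python 3.11.15.

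Members, lists and tests were chosen with earlier results of these data known. Named windows were, per comparison and direction, the 3 runs of called windows with the largest peak difference, and for level the 5 highest sites and 3 lowest valleys. Alternatives were the extract, filter, pseudocount, centre, margins, weights, centring, spread, replicate block and leaving out each library.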

Additional observations from a re-analysis of the deposited data

Results flagged for a closer look

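At 1 member window, on chromosome 1 at 192001 to 193000, the rad17 difference with the degron differed from that without it, by -1.50 (limma, with adjustment over all windows). It did not pass with the IP alone, relative to the library median, on own spread or without the trend of the spread. The rad17 replicates differed there, at -0.53 and -2.05 relative to the library median, with extracts of 0.235 and 0.692. The extract at that window and at its neighbour differed between strains, and these extracts are the divisors of the levels. At 191001 to 192000 the relative extract averaged 1.23 (0.97 to 1.76) in the 4 Pk libraries and 0.224 (0.15 to 0.38) in the other 10, which is 5.502-fold. At 192001 to 193000 it averaged 1.32 against 0.527, which is 2.502-fold. These are coverage values of the extracts, and their part in the window's difference was not tested.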

How the results depend on the processing

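Among the alternatives to the leading values, 231 kept their direction and their side of the threshold (for counts, within 1.5 times), 39 moved, 21 lost the threshold, 4 gained it and 7 turned. Centred on the library median, the short-arm difference was -0.10 in pds5-AID, -0.0232 in rad17 pds5-AID and, with the sign turned, 0.138 in rad17 and 0.0775 between the degron strains. Short minus long arms turned, without passing, in rad17 with the IP alone (-0.00155) and with weighted long arms in pds5-AID (-0.0346), in rad17 pds5-AID (-0.0369) and between these (-0.00232). On own residual spread the difference in short-arm level missed the threshold in pds5-AID (-0.68) and between the degron strains (-0.63). Short minus long arms for the break missed it with the IP alone (0.0207), on own spread (0.117, adjusted p = 0.0572), without the filter on the extract (0.117, adjusted p = 0.0523), at 50 kb from the centre (0.0987) and with weighted long arms (0.0993). For rad17 pds5-AID it passed at 50 kb (0.0991) and with the centre from adjacent windows (0.0753). At 50 kb the wild-type value itself was 0.0988. Called members for the break numbered 0 with the IP alone, 128 centred, 0 on own spread and 10 with a pseudocount of 20%, and without the trend of the spread 7 rose and 27 fell (5.33%, against 4.77% of all windows). For rad17 they numbered 0, 1 and 0 in the first 3 of these, and for pds5-AID 125 centred and 0 on own spread. For rad17 pds5-AID they numbered 177 centred, and against pds5-AID 290 with the IP alone (45.5%, against 50.7% of all windows), 1 centred, 0 on own spread and 264 with a pseudocount of 20%. Beyond what these settings change by construction, the cause was not tested.

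Same-numbered libraries had deviations correlated at 0.08 to 0.34 over 6 pairs of groups, with 2 pairs each, and the labels name no shared batch, so the numbers were not taken to pair them. The library codes in the titles do run in order within each replicate number. A correlation over windows does not show a shift of the whole level. Replicate 2 had the higher short-arm level in each HA group with a break (4.72 and 4.84 in wild type, 4.24 and 4.53 in rad17, 3.84 and 4.36 in pds5-AID, 3.304 and 3.62 in rad17 pds5-AID). With the replicate block the rad17 short-arm difference passed (-0.39), as did short minus long arms in rad17 pds5-AID (0.0659). The called members were 257 for rad17 (40.3%), 342 for pds5-AID (53.6%) and 542 between the degron strains (85%). Of all windows 43.1%, 58.2% and 88.4% were called.

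Leaving out 1 library at a time, where a lone remaining library is assumed to vary like the other groups, gave short-arm differences of -0.94 to -0.42 in pds5-AID and -0.90 to -0.37 between the degron strains, and -0.502 to 0.0208 for the rad17 difference with against without the degron. For the break, short minus long arms was 0.0987 to 0.134 and missed the threshold in all 8. Called members ran from 2 to 91 for the break, 0 to 75 for rad17, 27 to 305 for pds5-AID, 406 to 600 for rad17 pds5-AID and 2 to 451 between the degron strains. The falls at 30 to 60 kb passed in all of these. Depth limits the Pk libraries without a break and without nocodazole, and 2 libraries a group limit every test.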
